A study of Mus musculus with 3 samples.

Results

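The genes described here build, or bind, the basement membranes of the retina. They were 31 genes chosen by name from the 24071 rows of the count tables: 6 type IV collagen chains, 10 laminin chains, both nidogens, perlecan (Hspg2), agrin, the collagens Col15a1 and Col18a1, fibronectin (Fn1), Sparc, 6 integrin subunits and dystroglycan (Dag1). Each of the 31 had a row in all 3 tables. A basement membrane is a thin sheet in which a laminin network, bound to cells through integrins and dystroglycan, is joined to a type IV collagen network by nidogens and perlecan. Laminins are trimers of an α, a β and a γ chain, and type IV collagens are trimers of α chains, so that a sheet depends on several genes being used by cells that touch it. In the retina, such sheets lie around blood vessels, where endothelial cells, pericytes and astrocytes or Müller glia share them, and at the inner limiting membrane, which faces the vitreous and is lined by Müller endfeet.

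Single-cell RNA sequencing of mouse retina at P26 covered 3 groups, each with 1 library: Tspan12 KO mice treated with F4L5.13 (called treated), Tspan12 KO mice, and WT mice. TSPAN12 is a co-receptor for Norrin signalling through FZD4 in retinal endothelial cells, and F4L5.13 is an antibody agonist of FZD4 and LRP5. Per the labels, F4L5.13 was injected intraperitoneally at 10 mg/kg at P6, P9 and P12, then at 4 mg/kg at intervals of 3 days, and no vehicle is named for the other groups. All 3 samples, WT included, carry the strain label Tspan12tm1.2Hjug, and the labels do not give the number of animals or the part of Tspan12 removed. Magnetic beads for CD73 and for Annexin V were used to deplete photoreceptors and dying cells, so cell numbers describe the suspension that was left.

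With 1 library per group nothing could be tested between groups. A level is given in CPM, the reads of a gene scaled to the summed reads of its cell class in the same library; levels are compared within a gene, since they are not per length. Intervals are from exact formulas, at 95%, and cover counting error alone, not the spread between animals or preparations. A member was called past the fold when the ratio of 2 libraries was at least 1.5 in either direction and its interval left out 1. The libraries together also had to hold at least 30 molecule equivalents. These are reads divided by a library's index of dispersion in genes seen in few barcodes. The index stands in for reads per molecule, which were not measured. The words higher and lower below, used of a called gene, mean this rule.

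After filtering, 8215 treated, 9357 KO and 5785 WT cells were kept, with median depths of 6588, 7351 and 14797 reads per deposited barcode. Cell classes were named from fixed marker genes and have no other evidence of identity. Müller glia numbered 1242, 1386 and 1689 in the treated, KO and WT libraries, and all 12 of their markers had reads in each library. Endothelial cells numbered 43, 6 and 117, astrocytes 22, 26 and 49, and mural cells 6, 11 and 5. The libraries differed most in rods, with 3738 treated, 4245 KO and 219 WT cells, beside 561, 478 and 809 cones. In these suspensions fewer cells of a type and less RNA per cell cannot be told apart from the summed reads. Tspan12 itself had 24.9, 29.1 and 44.0 CPM in the Müller glia of the treated, KO and WT libraries. A 3′ tag outside the deleted part would still be counted, so these reads check nothing about the labels. The treated and KO libraries shared 31 cell barcodes, the treated and WT libraries 15, and the KO and WT libraries 17.

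The type IV collagen genes lie in head-to-head pairs, and 2 promoter windows are shown because the results return to them. Of the 31 members, 20 matched RefSeq's promoter table (build GRCm38.p6, which has the coordinates of mm10). Col4a1 and Col4a2 point away from each other on chromosome 8. Their annotated starts are at 11312826 on the minus strand and 11312805 on the plus strand, so that the first exons share 22 bases, which stand in capitals in this plus-strand stretch of chr8:11312801-11312830.
Col4a1/Col4a2: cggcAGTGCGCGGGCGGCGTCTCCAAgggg
The starts of Col4a5 and Col4a6 on chromosome X lie 1343 bases apart. The next stretch is the plus-strand promoter of Hspg2 at chr4:137468553-137468768. It is shown because Hspg2 was called higher in KO Müller glia, and the capitals mark the 2 matches to GCGTG, which with ACGTG is a core recognition sequence of hypoxia-inducible factors.
Hspg2: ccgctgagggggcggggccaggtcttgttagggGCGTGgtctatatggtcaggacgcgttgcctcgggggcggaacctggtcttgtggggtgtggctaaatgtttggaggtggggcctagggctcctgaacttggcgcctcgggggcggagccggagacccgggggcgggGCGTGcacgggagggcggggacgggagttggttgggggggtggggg
ACGTG or GCGTG, on either strand, occurred in the 250 upstream bases of 9 of 25 member windows (36.0%), against 12679 of 32851 windows in the whole table (38.6%). The members' share was therefore close to that of the table, and a match of 5 letters is a description of the sequence only. Of the members called higher in KO Müller glia, 3 had a window and 2 of these had a match. Besides Hspg2 they were Col4a1, with 1 match, and Itga3, with 0 in either window.

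Which class carried each chain was read from the level in every class and from the share of a gene's reads that a class held. Over the 3 libraries together, 27 of the 31 members reached 10 CPM in at least 1 class of 15 or more cells. The class with the highest level was endothelial for 12 of the 27, mural for 11, astrocyte for 2 (Col18a1 and Itgb4), ganglion for Itga3 and microglia for Col15a1. Mural cells were 22 in all, and for Col4a1, Col4a2, Col4a3, Col4a6, Lama2, Lama5, Itga1 and Dag1 their interval overlapped that of the next class. The first and second classes overlapped too for Col4a4, Col4a5, Lamc1, Lamc3 and Nid1, led by endothelial cells, and for Col18a1, Itga3 and Col15a1, so for these 16 members the order of the leading pair is not settled. The 4 members that did not reach 10 CPM were Lama1, Lama3, Lamb3 and Nid2. Lamb3, a chain of the epithelial laminin-332, stayed at or below 0.343 CPM in each of these classes.

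**Figure D1:**
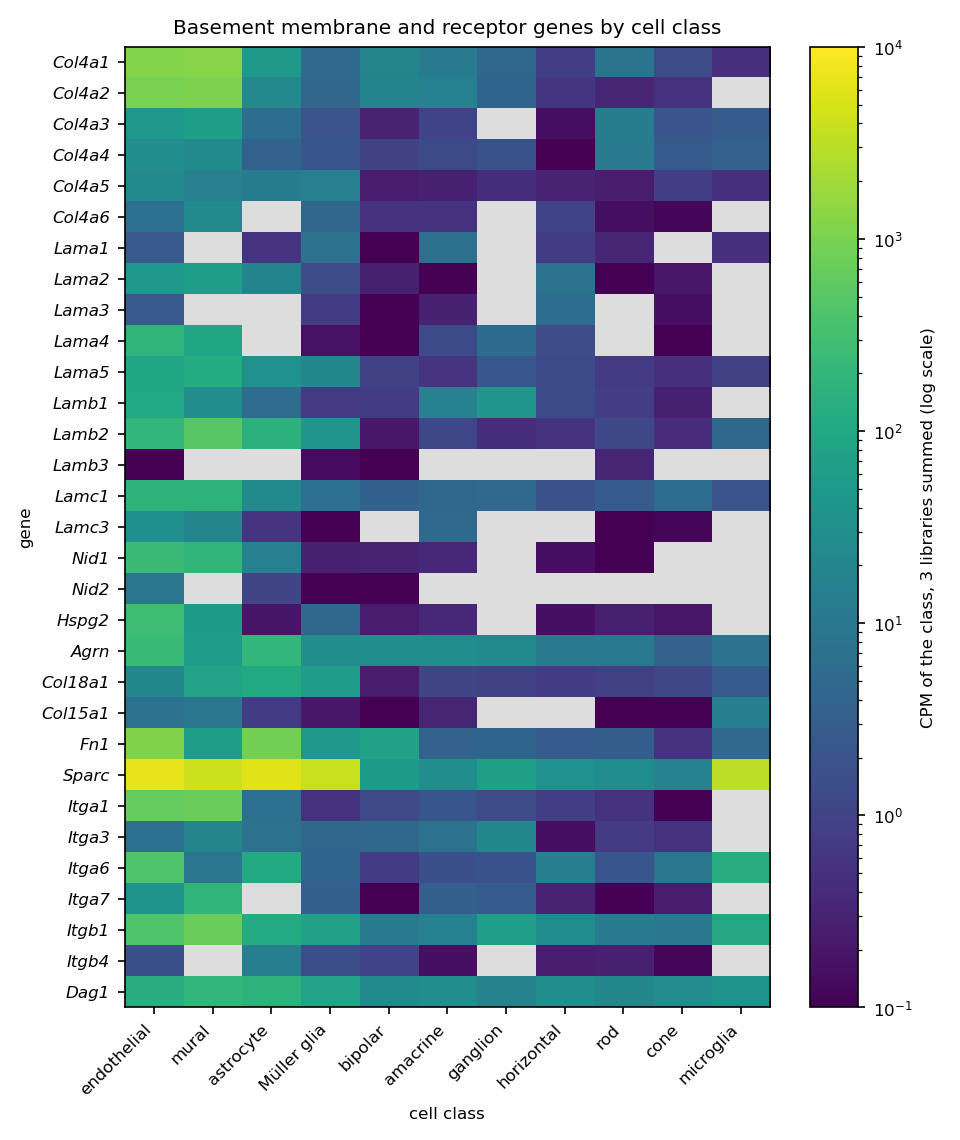
Heat map of the level of each of the 31 genes (rows) in 11 cell classes (columns), in CPM of the class with the 3 libraries summed, on a log colour scale; grey cells held no read. The vascular columns at the left carry most chains, and Sparc lies between 3138 CPM in microglia and 6699.5 CPM in endothelial cells across the 5 classes that carry most of it.

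Endothelial cells held most reads of the vascular chains when the 3 libraries were summed. They had 94.1% of the reads of Lama4, the α chain of vascular laminin-411, and 91.2% of Nid1 reads. They also had 92.3% of the reads of Itga1, a collagen-binding integrin subunit, 81.9% of Hspg2 reads, 75.7% of Col4a1 reads and 75.4% of Col4a2 reads. These sums weigh the libraries by their cells, and the treated and KO libraries held few endothelial cells. The endothelial class also carried mural markers, summed to 8716 CPM in treated and 7076 in WT, beside 32141 and 40388 CPM in mural cells. The part of mural RNA in the endothelial shares was not tested. Müller glia held most summed reads of Col18a1 (83.4%), whose fragment is endostatin, of Col4a5 (80.0%), Sparc (78.4%), Lama1 (78.2%), Col4a6 (74.5%), Lama5 (64.0%) and Lamb2 (58.5%). Dag1, the laminin receptor of the dystrophin complex, and Itgb1, the β subunit shared by most laminin and collagen integrins, were spread widely, with 55.7% and 50.7% of their reads in Müller glia. In the WT library alone, endothelial cells and not Müller glia held the greatest share of Lamb2 (46.0%, against 41.9% in Müller glia), Lama5 (47.4%) and Itgb1 (46.3%). Agrn, whose product binds laminin and dystroglycan, changed its order between libraries: Müller glia held 29.3%, 37.2% and 19.6% of its reads in treated, KO and WT, bipolar cells 35.3%, 25.5% and 20.5%, and endothelial cells 14.8%, 0.0848% and 45.6%.

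The β chains divided between classes. Of summed Lamb1 reads, 56.7% were in endothelial cells and 23.0% in amacrine cells, whereas Müller glia held 20, 34 and 22 Lamb1 reads in treated, KO and WT. Lamb2, the β2 chain, had 44.3, 40.6 and 38.8 CPM in the same Müller glia, and in amacrine cells it had 0, 28 and 0 reads. Among the α chains, Lama4 was nearly missing from Müller glia, with 2, 7 and 10 reads in treated, KO and WT, while Lama5 had 756, 930 and 627.

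Over the whole suspension, 6 genes with most of their summed reads in endothelial cells were lowest in KO. Over all kept cells Col4a1 stood at 39.7 CPM in treated, 14.5 in KO and 88.0 in WT, and Col4a2 at 32.6, 11.2 and 79.0 CPM. Itga1 stood at 15.8, 1.95 and 50.1 CPM, Nid1 at 6.60, 0.741 and 18.5, Lama4 at 5.28, 0.564 and 12.7, and Hspg2 at 8.68, 2.87 and 20.2. For each of these 6 genes KO was the lowest library and treated lay between KO and WT. Picking genes by summed endothelial reads favours those that are high where endothelial cells are many. WT held 8504 endothelial Col4a1 reads, treated 2992 and KO 254. The order of libraries is therefore no finding apart from the endothelial cell numbers. Endothelial cells made up 0.523% of kept cells in treated, 0.0641% in KO and 2.02% in WT, and rods 45.5%, 45.4% and 3.79%. With rods left out, a choice made after the data were seen, endothelial cells were 0.960%, 0.117% and 2.10% of the rest, Col4a1 stood at 44.6, 14.9 and 90.9 CPM, and each of the 6 genes kept the same order of libraries. That order did not hold for every chain with its largest summed share in endothelial cells. Without rods, Lamc3 stood at 0.629, 1.10 and 2.90 CPM, Lamb1 at 3.57, 4.78 and 8.19, and Fn1 at 78.9, 83.6 and 127, each lowest in treated. Of the chains with most of their reads in Müller glia in each library, Col18a1 and Col4a5 differed less. Col18a1 had 19.6, 23.9 and 25.9 CPM over all kept cells, and Col4a5 had 5.57, 5.88 and 7.53 CPM. Lama1, with 78.2% of its summed reads in Müller glia, was highest in KO, at 3.38, 5.09 and 2.33 CPM with rods left out.

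**Figure D2:**
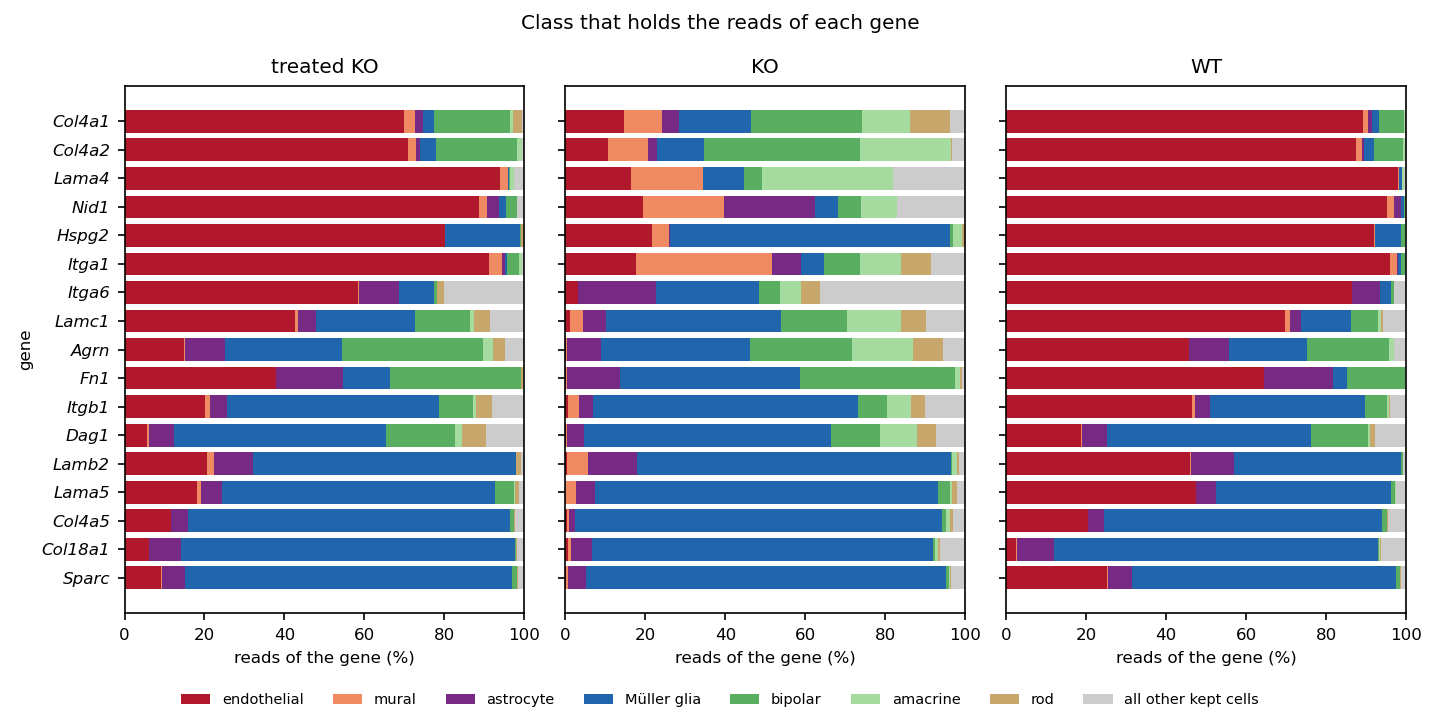
Share of each gene's reads (percent, horizontal axis) held by each cell class in the treated KO, KO and WT libraries, for 17 genes. Endothelial cells hold 69.9% of Col4a1 reads in treated, 14.7% in KO (6 cells, with 240 of the 254 reads in 1 of them) and 89.3% in WT, while Müller glia hold 83.5%, 85.5% and 81.1% of Col18a1 reads.

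The share that each class held of the vascular chains differed between libraries, and the KO endothelial shares rest on 6 cells, mostly on 1 of them for Hspg2 and Col4a1. Endothelial cells held 80.1% of Hspg2 reads in treated, 21.7% in KO and 92.0% in WT, and Müller glia held 18.9%, 70.1% and 6.62%. For Fn1, endothelial cells held 38.0%, 0.160% and 64.4%, and Müller glia 11.96%, 44.98% and 3.47%. For Lama5, the α chain of laminin-511, endothelial cells held 18.0%, 0% and 47.4%, and Müller glia 68.4%, 86.0% and 43.9%.

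Endothelial cells of the treated library had levels close to those of WT for most chains. Of the 31 members, 24 had enough reads in treated and WT endothelial cells together. Past the fold, 2 were higher in treated (Col18a1 and Itga7) and 2 were lower (Col4a3 and Lamc3). Over all genes the same rule called 4.3% higher and 5.15% lower. The median log2 ratio was 0.08 for the members and -0.07 for all genes. The main chains were below the 1.5-fold limit: Col4a1 had 1364 CPM in treated and 1080 in WT (ratio 1.26, interval 1.17 to 1.36), Col4a2 had 1137 and 949 CPM (1.20, 1.11 to 1.30), and Nid1 had 288 and 243 CPM (1.18, 1.01 to 1.39).

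Lama4 had 244 CPM in treated and 171 CPM in WT endothelial cells, a ratio of 1.43 (interval 1.19 to 1.70). Hspg2 had 342 and 256 CPM, a ratio of 1.34 (1.15 to 1.55). Itga6, the laminin-binding α6 subunit, had 431 and 409 CPM, Itga1 708 and 661, Itgb1 423 and 424, Dag1 128 and 132, and Lamc1, the common γ chain, 166 and 172. Sparc, a collagen-binding matricellular protein, had 6554 and 6753 CPM. Nid2, the second nidogen, had 8.21 and 9.65 CPM from 18 and 76 reads. All of these ratios lay within 1.5-fold of 1.

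Col18a1 had 58.8 CPM in treated endothelial cells (129 reads in 17 of 43 cells) and 8.64 CPM in WT (68 reads in 24 of 117 cells), a ratio of 6.81 (interval 4.04 to 11.7). The 5 treated cells with the most reads held 59.7% of them, and without the 5 highest cells in each library Col18a1 was still past the fold. Itga7, an α subunit of a laminin-binding integrin best known in muscle, had 59.7 CPM in treated and 28.7 in WT, a ratio of 2.08 (1.40 to 3.06), which did not pass once the 5 highest cells were left out. Lower in treated were Col4a3, with 25.5 against 51.2 CPM (ratio 0.499, 0.286 to 0.819), and Lamc3, a γ chain, with 16.9 against 37.1 CPM (0.455, 0.226 to 0.833). Col15a1, a collagen close to Col18a1, had 31 reads in 12 of 43 treated cells (14.1 CPM) and no read in 117 WT cells, where 3 molecule equivalents would be 1.04 CPM. It had too few molecule equivalents for the rule.

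Other markers moved with the endothelial class and their part in these differences was not tested. Summed mural markers stood at 8716 CPM in treated and 7076 in WT endothelial cells, fibroblast or meningeal markers at 2472 and 1326, and erythroid markers at 25412 and 32774, with Slc6a13, of the fibroblast list, at 0 in treated and every other marker of these lists above 0 in both. Median depth was 49107 reads per treated and 65374 per WT endothelial cell. Sub-clusters were also shared unevenly. The one with the mural marker Rgs5 as its first leading gene held 29 of the 43 treated and 7 of the 117 WT cells. Its part in the treated levels and calls was not tested. Another, of 3 treated and 61 WT cells, had haemoglobin genes among its leading genes. Without this haemoglobin sub-cluster, 4 members were higher in treated (Lama4 and Hspg2 in addition) and 1 was lower (Col4a3).

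**Figure D3:**
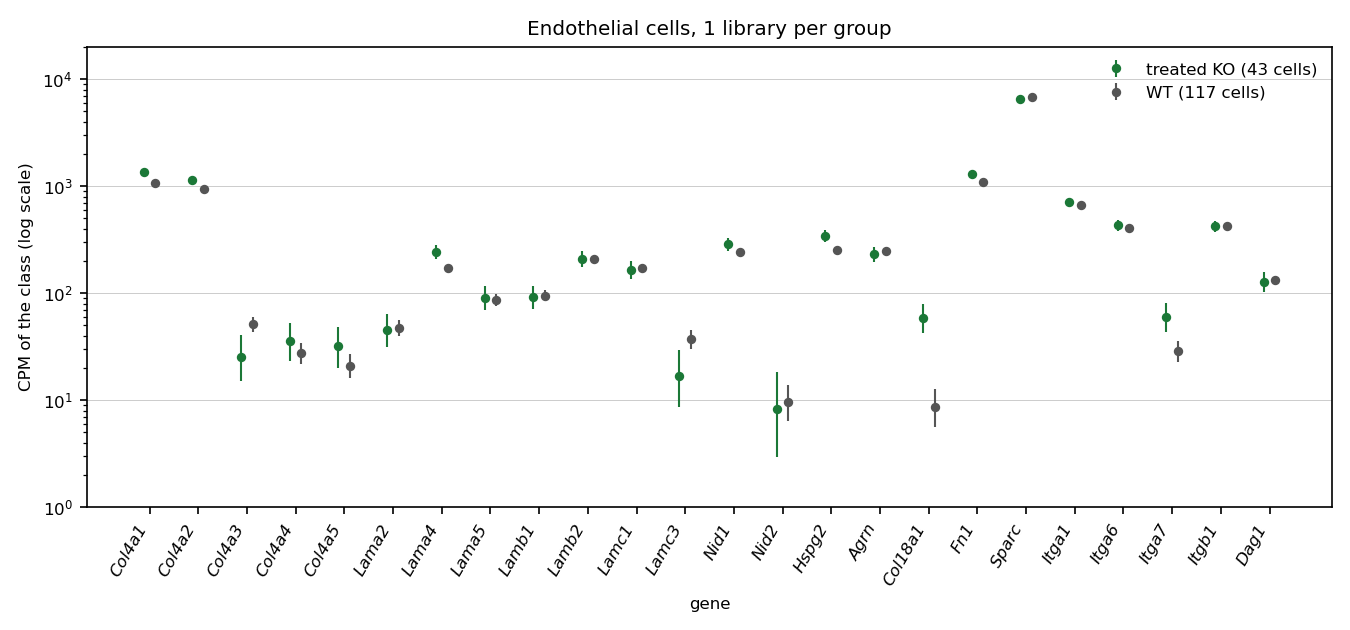
Level of the 24 members with enough reads in endothelial cells, in CPM on a log axis, for the treated KO (green, left) and WT (grey, right) libraries; bars are exact 95% counting intervals and a triangle would mark a library with no read. Most pairs lie close together, and Col18a1 is the pair farthest apart, at 58.8 CPM in treated and 8.64 CPM in WT.

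The KO endothelial class was 6 cells, so apart from the shares of reads above it is given cell by cell, and no level of it is compared. The deepest cell had 37325 reads, reads from all 12 endothelial markers and reads from 21 of the 31 members. That cell alone held 240 of the 254 Col4a1 reads of the class, 131 of 141 Col4a2 reads, 61 of 74 Hspg2 reads, and all of its Col15a1 (43), Itga1 (41), Itga6 (25) and Lama4 (11) reads. Only 7 of its reads were from Fn1. It also held 139 reads of Rgs5 and 22 of Pdgfrb, which mark mural cells, and 52 of Plvap, a gene of fenestrated endothelium. The other 5 cells had 3101 to 6352 reads in all and reads from 1 to 10 members each. By marker count alone, without clustering, 8 or more of the 12 endothelial markers were read in 40 treated, 2 KO and 118 WT cells.

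In Müller glia the member with the greatest difference between libraries was Fn1. Fibronectin is a provisional matrix protein bound by several integrins. Fn1 stood at 26.8 CPM in treated (889 reads in 1242 cells), 96.3 CPM in KO (3944 reads in 1386 cells) and 11.99 CPM in WT (460 reads in 1689 cells). The KO level was 8.03 times that of WT (interval 6.84 to 9.48). The treated level was 0.278 times that of KO (0.244 to 0.316) and 2.23 times that of WT (1.84 to 2.72). The KO library was highest, treated was between, and the 3 intervals did not overlap.

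In all, 22 members had enough reads in Müller glia. Of these, 6 were higher in KO than in WT and none was lower: Fn1, Lama1, Itga6, Col4a1, Hspg2 and Itga3. Over all genes 8.37% were called higher and 8.29% lower. The median log2 ratio of the 22 was 0.29, against -0.00 for all genes. At an unfiltered count, with no minimum of molecule equivalents, Lama3 and Itga1 were lower, from 9 against 50 and 13 against 43 reads.

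Lama1, the α chain of laminin-111, which is prominent in the inner limiting membrane, had 9.76 CPM in KO and 5.24 CPM in WT Müller glia, a ratio of 1.86 (interval 1.40 to 2.50). Col4a1 had 7.57 and 4.30 CPM, a ratio of 1.76 (1.28 to 2.45), while its head-to-head partner Col4a2 had 3.86 and 5.73 CPM, a ratio of 0.673 (0.471 to 0.956) that did not reach the limit. Itga6 had 5.03 and 2.76 CPM (1.82, 1.22 to 2.76). Hspg2 had 5.83 and 3.78 CPM (1.54, 1.08 to 2.22), and Itga3, another laminin-binding subunit, had 5.08 and 3.34 CPM (1.52, 1.04 to 2.24). The last 2 lay close to the limit.

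Several members with many reads in Müller glia were near 1 in the same comparison. Sparc had 3943 CPM in KO and 3624 in WT (ratio 1.09, interval 1.08 to 1.10), Col18a1 59.1 and 59.2 CPM (0.998, 0.907 to 1.10), Lamb2 40.6 and 38.8 CPM (1.05, 0.931 to 1.18), Itgb1 77.2 and 73.1 CPM (1.06, 0.970 to 1.15) and Col4a5 15.7 and 14.8 CPM (1.06, 0.876 to 1.28). Dag1 had 95.5 and 74.1 CPM (1.29, 1.19 to 1.40), Lama5 22.7 and 16.3 CPM (1.39, 1.17 to 1.65) and Agrn 32.1 and 22.0 CPM (1.46, 1.26 to 1.69). These 3 had intervals above 1 and ratios under the limit. So did Col4a6, the partner chain of Col4a5, with 5.20 and 3.54 CPM (1.47, 1.01 to 2.14). The other tested members, Lamc1, Lama2, Col4a3, Col4a4, Itga7 and Itgb4, had intervals that included 1; Lamc1 had 7.32 and 6.36 CPM. Too few reads for the rule were found for Lama3, Lama4, Lamb1, Lamb3, Lamc3, Nid1, Nid2, Col15a1 and Itga1.

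**Figure D4:**
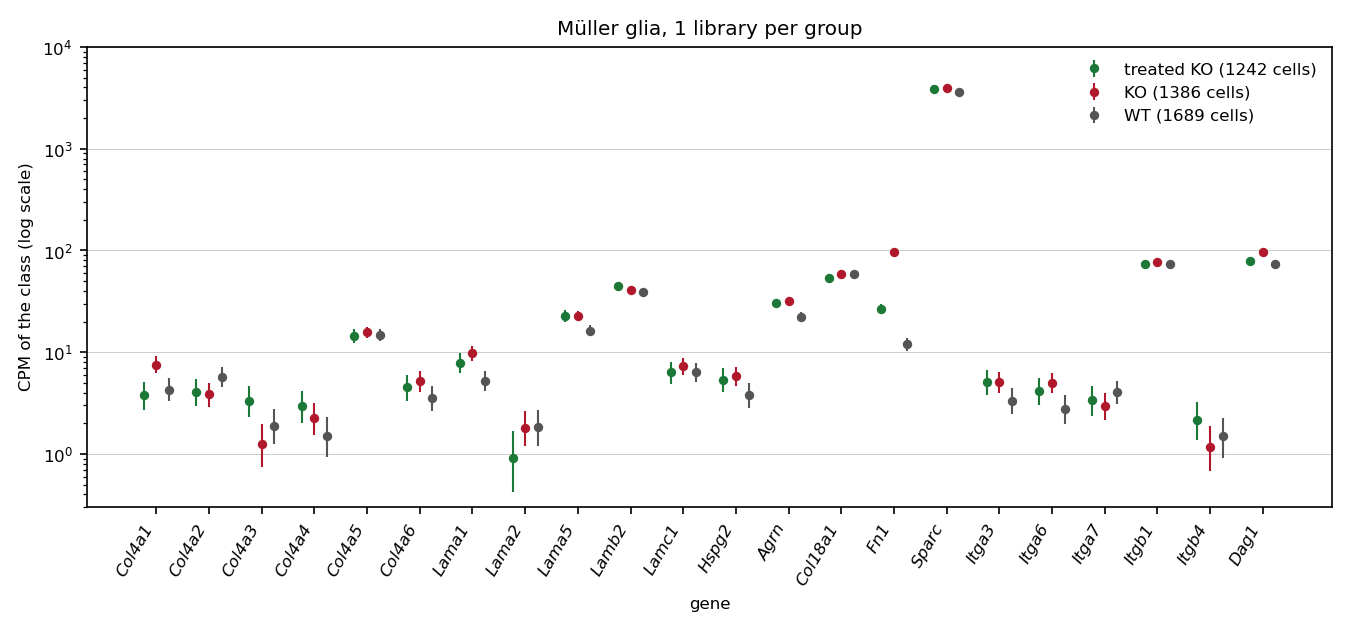
Level of the 22 members with enough reads in Müller glia, in CPM on a log axis, for the treated KO (green, left), KO (red, middle) and WT (grey, right) libraries; bars are exact 95% counting intervals. Fn1 separates most, at 26.8, 96.3 and 11.99 CPM, whereas Sparc, Itgb1 and Col18a1 nearly coincide.

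Between treated and KO Müller glia, 2 of 22 members were lower in treated, Fn1 and Col4a1, and 1 was higher, Col4a3. Over all genes the rule called 5.97% lower and 6.49% higher. Col4a1 had 3.77 CPM in treated and 7.57 CPM in KO, a ratio of 0.498 (interval 0.337 to 0.721). Lama1 had 7.87 and 9.76 CPM (0.806, 0.607 to 1.06), Itga6 4.16 and 5.03 CPM (0.827, 0.556 to 1.22), Hspg2 5.33 and 5.83 CPM (0.914, 0.641 to 1.29) and Itga3 5.06 and 5.08 CPM (0.997, 0.688 to 1.44). The intervals of these 4 included 1. Agrn and Lama5 also had similar levels in treated and KO, with 30.2 and 32.1 CPM, and 22.8 and 22.7 CPM.

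Against WT, 5 of 22 members were higher in treated Müller glia and none was lower; the rule called 4.2% of all genes higher and 3.23% lower. They were Fn1, Lama1 (7.87 against 5.24 CPM, ratio 1.502, interval 1.08 to 2.08), Itga3 (5.06 against 3.34 CPM, 1.52, 1.01 to 2.30), Col4a3 (3.31 against 1.90 CPM, 1.74, 1.02 to 3.0) and Col4a4 (2.95 against 1.51 CPM, 1.95, 1.09 to 3.57). This comparison shares its libraries with the ones above. All but Fn1 had intervals that reached down to nearly 1, and each of these 4 failed the rule in at least 4 of 11 settings.

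Col4a3 and Col4a4, whose products join with that of Col4a5 in a network known from the glomerulus, were also read in rods. Col4a3 had 11.8, 13.2 and 18.4 CPM in treated, KO and WT rods, and Col4a4 had 9.56, 13.2 and 5.76 CPM. Rods held 32.7% of Col4a3 reads and 30.6% of Col4a4 reads over the 3 libraries. Summed rod markers in Müller glia stood at 11506, 9008 and 10835 CPM in treated, KO and WT, and all 10 rod markers had reads in each. One shallow Müller cluster, of 98 treated, 65 KO and 4 WT cells, had 64.1 CPM of Col4a3 in treated, from 25 reads. The part of rod RNA in the Müller values of these genes was not tested.

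Müller glia fell into 5 clusters that the libraries shared unevenly. One cluster held 77 treated, 736 KO and 23 WT cells and was led by Ndufa4l2, Adm and Apln. There Fn1 stood at 84.1 CPM in treated, 114 in KO and 25.2 in WT. Another cluster had similar cell numbers in each library, 326, 367 and 338, and Fn1 stood at 30.2, 85.4 and 10.7 CPM. In a cluster that also carried cone markers Fn1 had 19.3, 80.2 and 9.51 CPM, and in the cluster that held most WT cells it had 20.7, 27.5 and 12.7 CPM, the KO value coming from 26 cells.

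The Fn1 value was thus highest in KO in each of these 4 clusters. In the cluster that held most WT cells this order is not settled. Its KO cells in 2 sub-clusters, of 12 and 14 cells, had 8 Fn1 reads each. Their intervals, 5.57 to 83.4 and 5.36 to 80.3 CPM, overlapped those of treated and WT. The libraries' cells still differed within clusters. In the cluster of similar cell numbers, 1 sub-cluster led by Ndufa4l2, S100a6 and Adm held 13 treated, 351 KO and 8 WT cells, and another held 228, 5 and 228. Sub-clusters were compared after the values above were seen. In the 5 sub-clusters with at least 10 KO and 10 WT cells, the KO value of Fn1 was above the WT value in 5, by 2.09 to 22.4 times. The intervals were apart in 2 of the 5, and each of the 5 held at most 20 cells of 1 library. The treated value was below the KO value in 7 of 9 sub-clusters, with intervals apart in 3, and above it in 2 made up mostly of KO cells. In the first of these, the one led by Ndufa4l2, S100a6 and Adm, Fn1 stood at 103 CPM in treated (13 cells) and 85.2 in KO. Whether the class differences lie within one kind of Müller cell or in the mix of kinds was not tested.

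Lama1 was also past the fold in the cluster of similar cell numbers, whose KO and WT cells lay in different sub-clusters, at 11.0 CPM in KO and 6.15 in WT. Col4a1, Hspg2, Itga3 and Itga6 were not: Col4a1 had 8.78 and 6.35 CPM there, Hspg2 4.804 and 4.46, Itga3 5.30 and 2.58, and Itga6 4.14 and 2.68, each with an interval that included 1. Fn1 and Lama1 were past the fold between KO and WT in 11 of 11 settings, Col4a1 and Itga6 in 10, Itga3 in 6 and Hspg2 in 5.

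Markers of other cell types were counted in the same Müller sums, and their part in the result was not tested. Summed endothelial markers stood at 801, 917 and 880 CPM in treated, KO and WT, with 10, 8 and 12 of the 12 markers read; Tie1 and Erg were at 0 in treated, and Cdh5, Tie1, Ly6c1 and Erg in KO. Mural markers stood at 386, 331 and 363 CPM, with Higd1b at 0 in treated and KO. Astrocyte markers stood at 1981, 2377 and 2235 CPM, with Pax2 at 0 in all 3 libraries. Fibroblast or meningeal markers stood at 32.2, 73.8 and 28.3 CPM, and cone markers at 2169, 2729 and 1131 CPM. Median depth per Müller cell was 23403, 27422 and 19409 reads. Without the cluster that carried cone markers, Fn1 was still past the fold in all 3 comparisons.

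Bipolar cells, the relay neurons between photoreceptors and ganglion cells, also carried Fn1, and again most in KO. The level was 65.3 CPM in treated (2165 cells), 128 in KO (1737 cells) and 51.4 in WT (2533 cells). The KO level was 2.49 times that of WT (interval 2.27 to 2.74), and the treated level 0.509 times that of KO (0.465 to 0.558). Of 9 members with enough reads, Fn1 alone was called. Over all genes 6.75% were called higher and 4.28% lower in KO than in WT, and 4.25% higher and 7.32% lower in treated than in KO. Beside these values, rods had 2.07, 4.04 and 2.02 CPM of Fn1, and cones 0.605, 0.946 and 0.339 CPM.

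Fn1 reads were unevenly spread over the 16 bipolar clusters. With libraries summed, 8 clusters stood between 37.7 and 396 CPM and the other 8 at or below 6.12 CPM. In all 8 Fn1 clusters KO was above WT, by 1.91 to 16 times, and treated was above WT. Treated was below KO in 7 of the 8. No intervals are given for this range, and 1 of the 8 clusters held only 15 treated and 29 WT cells beside 237 KO cells. The cluster with the highest level had 343 CPM in treated, 701 in KO and 316 in WT (KO over WT 2.22, interval 1.87 to 2.63). Without that cluster the remaining bipolar cells had 48.4, 105 and 32.6 CPM (KO over WT 3.22, 2.87 to 3.62). Here too the libraries' cells lay in different sub-clusters: the cluster with the highest level held 1 sub-cluster of 140 treated, 13 KO and 189 WT cells and 1 of 14, 68 and 5, and another Fn1 cluster held 15, 237 and 29 cells. In sub-clusters of the 8 with at least 10 cells of both libraries, the KO value was above the WT value in 15 of 17, with intervals apart in 6, and the treated value was below the KO value in 13 of 17, with intervals apart in 5. In the sub-cluster of 13 KO and 189 WT cells Fn1 stood at 800.4 and 311 CPM. The genes used next to describe clusters were chosen after the levels were seen. The 8 Fn1 clusters had 158 to 358 CPM of Grm6, the glutamate receptor of ON bipolar cells, and at most 46.2 CPM of Prkca, the kinase used as a rod bipolar marker. In 4 of the 8, Grik1, a kainate receptor gene of OFF bipolar cells, was also read, at 365 to 939 CPM. Median depth was 19305 to 28601 reads per cell in those 4. It was 24253.5 in cluster 12, and 10903 to 12999 in clusters 13, 14 and 27. In the clusters low in Fn1 it was 8202 to 18115. Whether doublets left after filtering, or mixed cells, add to the deeper Fn1 clusters was not tested. Grm6 alone did not set the 8 apart, since another cluster had 486 CPM of Grm6, 44.0 of Prkca and 4.42 of Fn1.

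**Figure D5:**
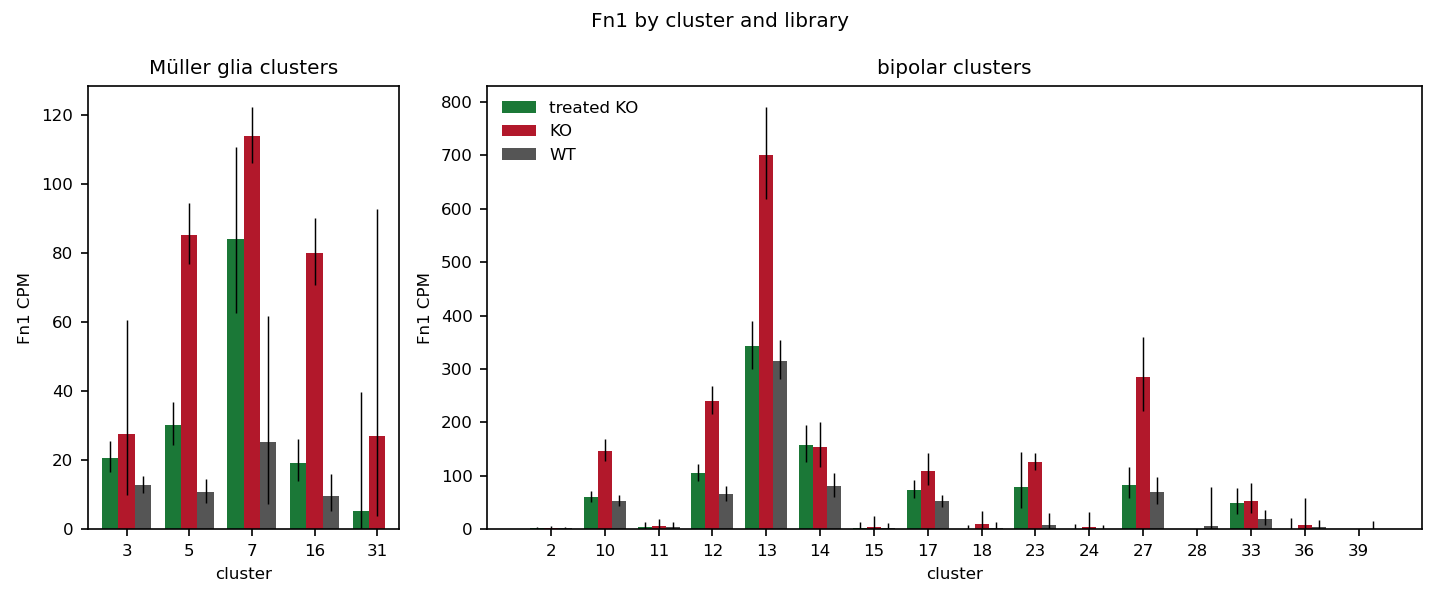
Fn1 level in CPM by cluster for Müller glia (left panel) and bipolar cells (right panel), with treated KO in green, KO in red and WT in grey, left to right; bars are exact 95% counting intervals, and a library with under 20 Müller or 10 bipolar cells in a cluster is not drawn. The KO bar is the highest in each Fn1-bearing cluster except bipolar cluster 14, where treated has 158 CPM and KO 154 CPM.

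Glial markers in the bipolar clusters are given beside this result. In the cluster with the most Fn1, summed Müller markers stood at 269 CPM in treated, 353 in KO and 332 in WT. Summed astrocyte markers stood at 595, 1123 and 493 CPM, nearly all of it Aldoc (587, 1110 and 486 CPM). In the cluster with the most Prkca, Aldoc stood at 102, 415 and 72.1 CPM, and Fn1 at 2.18, 2.25 and 1.82 CPM.

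That Prkca cluster carried other members instead. It held 703 of 2165 treated, 575 of 1737 KO and 643 of 2533 WT bipolar cells. It contained 76.6%, 60.8% and 67.3% of the bipolar reads of Col4a1, 57.6%, 57.2% and 56.2% of those of Col4a2, and 84.6%, 88.9% and 82.1% of those of Itga3. With libraries summed, Col4a1 stood at 60.3 CPM, Col4a2 at 48.9 and Itga3 at 19.4 in this cluster. For the whole bipolar class Col4a1 had 21.6, 17.9 and 15.8 CPM and Col4a2 19.2, 19.5 and 16.6 CPM in treated, KO and WT, with no call between libraries.

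In amacrine cells, which are mostly inhibitory interneurons, levels of laminin chains differed between clusters. With libraries summed, Lamb1 had 38.9 CPM in 1 cluster that carried Gad1, and Lama1 had 25.6 and 20.3 CPM in 2 clusters with Slc6a9, the glycine transporter gene, and little Gad1. These markers, chosen after the levels were seen, did not set the clusters apart. Clusters with still more Gad1 had Lamb1 at 10.4, 4.98 and 21.4 CPM. A cluster with 53.6 CPM of Slc6a9 and 31.4 of Gad1 had Lama1 at 6.70 CPM. Lamc3 stood at 11.8 CPM in the Lamb1 cluster and at 9.42 CPM in 1 of the Lama1 clusters. The class held 140 treated, 1108 KO and 117 WT cells spread differently over the clusters: those with most KO cells had 298 and 281 KO cells but 11 and 5 WT cells. In the Lama1 cluster with 20.3 CPM, a sub-cluster of 1 treated, 109 KO and 1 WT cells stayed unnamed and is not in the class. Another sub-cluster of it, with 13 treated, 0 KO and 36 WT cells, was kept. Over the class, Lamb1 had 23.4, 15.0 and 17.1 CPM in treated, KO and WT, Lama1 12.2, 5.92 and 10.6, and Lamc3 5.75, 5.42 and 4.03, and the part of the cluster mix in these levels was not tested. Of 12 members with enough reads, only Sparc was called, lower in KO than in WT and lower in treated than in KO. The rule called 4.44% of all genes higher and 5.33% lower in the first comparison, and 5.06% and 4.2% in the second. Sparc had 6.83, 18.1 and 157 CPM, but 5 cells held 94.9% of the WT reads. With the 5 highest cells left out neither call was made.

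Astrocytes numbered 22, 26 and 49 and were compared by no rule. Fn1 had 813 CPM in treated, 801 in KO and 991 in WT, Sparc 5899, 5819 and 5557, Agrn 228, 209 and 185, and Dag1 207, 178 and 149. Lamb2 had 144, 177 and 165 CPM, Col18a1 112, 102 and 112, and Itga6 110, 107 and 113. Itgb4, the partner of α6 in a laminin receptor of hemidesmosomes, had 9.90, 29.4 and 6.48 CPM from 15, 43 and 15 reads. Of the 26 KO astrocytes, 22 lay in a sub-cluster with 1 treated and no WT cell, where Fn1 stood at 622 CPM; the other 4 KO cells, in the sub-cluster of all WT astrocytes, had 2055 CPM. Mural cells had Col4a1 at 1141, 973 and 2128 CPM and Itga7 at 303, 153 and 88.0 CPM, from 6, 11 and 5 cells.

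Smaller classes each had a few members. Horizontal cells had Lama3, an α chain of epithelial laminins, at 6.41, 5.83 and 6.79 CPM in 94, 79 and 40 cells, and Lama2, the α chain of laminin-211, at 2.88, 15.9 and 5.88 CPM. Microglia had Itga6 at 120, 137 and 136 CPM and Sparc at 2233, 3500 and 3558 CPM in 36, 69 and 14 cells. Ganglion cells were nearly all from KO, where 28 cells had 48.4 CPM of Lamb1, 23.1 of Itga3 and 66.3 of Itgb1.

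Further matrix genes were read in Müller glia from 5 lists. Of the 22 other matrix receptors in the tables, 15 had enough reads: 7 were higher in KO than in WT and none was lower (8.37% and 8.29% of all genes). Itga4 had 18.3 against 5.92 CPM (ratio 3.10, interval 2.42 to 4.01), Cd44, the hyaluronan receptor, 138 against 56.8 CPM (2.44, 2.24 to 2.65), Sdc4, a heparan sulphate syndecan, 387 against 177 CPM (2.19, 2.09 to 2.29), and Sdc3 5.54 against 2.66 CPM (2.08, 1.40 to 3.16). The median log2 ratio of the list was 0.53. In the treated library 6 of the 15 were lower than in KO and none was higher (5.97% and 6.49% of all genes). Both Itga4 and Itgb1 encode subunits of a fibronectin receptor, and Itgb1 was near 1 as given above.

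Of 12 matrix proteases and inhibitors, 2 were higher in KO than in WT and 3 lower, beside the 8.37% and 8.29% of all genes. Timp1, an inhibitor of metalloproteinases, had 33.0 against 1.20 CPM (ratio 27.5, interval 17.0 to 47.7), and 6.81 CPM in treated. Adamts4 had 1.93 against 0.782 CPM, Serpine2 4.25 against 9.43 and Reck 11.1 against 20.8. Among 15 other basement membrane proteins 2 were higher and 1 lower, against the same 8.37% and 8.29%: Loxl2, a collagen cross-linking oxidase, had 16.3 against 3.02 CPM (5.39, 3.88 to 7.66), Smoc1 14.3 against 8.11 and Papln 1.29 against 3.13. In treated against KO Müller glia, 3 of the proteases and inhibitors were higher and 1 lower, and 1 of the other basement membrane proteins was higher and 3 lower (6.49% and 5.97% of all genes), Loxl2 among them at 5.85 CPM in treated.

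In the next lists, too, the share of all genes is 8.37% higher and 8.29% lower. Of 17 collagen biosynthesis genes only P4ha2, a prolyl hydroxylase subunit, was called, at 21.2 CPM in KO against 13.2 in WT (ratio 1.61, interval 1.34 to 1.94). Of 22 genes for dystroglycan glycosylation and the dystrophin complex only Utrn (utrophin) was called, lower at 19.0 against 35.3 CPM (0.538, 0.463 to 0.624), and it had 39.1 CPM in treated. The medians of these lists were 0.25 and -0.07 on the log2 scale.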

How the data were processed

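The authors deposited, per library, expected counts of genes by cell barcode from 10x Chromium 3′ v3 libraries, per the labels' protocols. The submitters' processing notes name Partek 9.0 and mm10; aligner and molecule collapsing are not given in the sources used here. From 2.33 to 2.40% of nonzero values were not whole, and all were rounded. Values behaved as reads, not the molecules assumed in the plan. Intervals and minimums therefore used reads divided by an index of dispersion, 3.16 (treated), 2.76 (KO) and 2.73 (WT). Barcodes needed 500 genes and at most 20% mitochondrial reads; 702, 882 and 296 barcodes ranked as doublets among simulated ones were removed, since a caller's threshold had failed. Cells were clustered without the 31 members (2000 variable genes, 40 components, 15 neighbours, leidenalg 0.10.2, resolution 1.0). A cluster was named from 3 or more markers at least 2-fold up in 20% of its cells, at the coarse level; this choice, the molecule divisor and the doublet ranking were made after the data were seen. All 31 members are named; of each further list, up to 4 called genes in KO against WT Müller glia. The members, lists and rules were chosen with earlier results of these data known. Ratios have exact conditional binomial intervals, levels exact Poisson ones (SciPy 1.17.1); the calculation was tested on simulated data. A gene without reads was given a limit of 3 molecule equivalents per library. Alternatives were scaling, cell weighting, filters, doublets, rounding, dominant cells and class assignment.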

Additional observations from a re-analysis of the deposited data

Results flagged for a closer look

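Col4a3 lay past the fold in opposite directions in 2 classes of the same pair of libraries. In Müller glia it was higher in treated than in WT, with a ratio of 1.74 (3.31 against 1.90 CPM). In endothelial cells it was lower in treated than in WT, with a ratio of 0.499 (25.5 against 51.2 CPM). The difference between the classes was not tested, since each group has 1 library, and the Müller value was past the fold in 7 of 11 settings.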

How the results depend on the processing

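No paired analysis was possible because the 3 groups share only replicate number 1, and no replicate could be left out. Fn1 was past the fold in Müller glia and bipolar cells in each setting run (KO over WT 6.64 to 8.59 and 1.97 to 3.25). Counts that changed follow; the cause was not tested. In Müller glia, KO against WT, 2 members were higher in the cluster of most similar cell numbers alone, and 1 (per-cell means) or 2 (no minimum) were lower. For treated against KO, 6 were lower with per-cell means and 0 higher in that cluster. For treated against WT, 3 were higher with median-of-ratios scaling, per-cell means or without sub-clusters led by genes of another type, 2 with 1000 genes per cell or without the cone-marker cluster, and 1 in the cluster of similar cell numbers; 2 (per-cell means) or 1 (no minimum) were lower. In endothelial cells 1 was higher without the 5 highest cells, and 4 were higher and 1 lower without the haemoglobin sub-cluster. In bipolar cells, KO against WT, 2 were higher with per-cell means or marker-score classes and 3 with no minimum; for treated against KO, 3 were lower with no minimum and 1 higher without the 5 highest cells. In amacrine cells, KO against WT, 2 were lower with no minimum, 0 with doublets kept or without the 5 highest cells, where 1 was higher. For treated against KO, 1 was higher with per-cell means, no minimum or marker scores, and 0 lower with per-cell means, 1000 genes, doublets kept or without the 5 highest cells; Sparc then had a ratio of 1.10 with doublets kept. Leaving out sub-clusters and the cone-marker cluster was chosen after seeing the data. Without each gene's 5 highest cells, 7 mural-led members became endothelial-led and Dag1 astrocyte-led. Few endothelial, mural and ganglion cells, and KO endothelial depth (median 4479 reads), limit what these classes can show.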

Other observations

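A sub-cluster of 10 cells (3 treated, 3 KO and 4 WT) next to the largest Müller cluster stayed unnamed because its leading genes, among them Optc, Crhbp, Fbln1 and Wfdc1, were of another type. It entered no comparison. Col18a1 stood at 465 CPM in these cells (335 reads in 9 of the 10), with 52.0 CPM in treated, 764 in KO and 481 in WT, and Col4a5 at 58.3 CPM. Hspg2, Itga1 and Lama4 had no read in it.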
